A study of Mus musculus with 6 samples.

Results

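Immediate early genes are 10 genes picked by symbol from the tables: Fos, Fosb, Jun, Junb, Jund, Egr1, Atf3, Ier2, Nr4a1 and Zfp36. Each symbol matched 1 of 46078 genes in all 6 libraries. RNA came from whole ovaries of C57BL/6 mice that were 8 to 9 weeks old, with 3 libraries from a control group and 3 from a group given cyclophosphamide (CTX), a chemotherapy agent that alkylates DNA. Every ovary was frozen in liquid nitrogen before Trizol extraction, but the sources used here do not state how long it lay between removal and freezing. They do not state dose, route, time since treatment or cycle stage either. Whether each library stands for its own animal is not said, so the p-values weigh only library-to-library spread, which may be technical.

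Immediate early genes are switched on by signals such as growth factors, hormones and stress without the need for new protein, and their messages are short-lived. Serum response factor, ETS proteins and CREB, which sit on their promoters beforehand, are activated by kinases, and many of the induced proteins are themselves transcription factors that pass the signal on. In the ovary they are known as early responders to gonadotropins in follicles, and in any tissue as responders to dissection, warming and dissociation, which is why they are read as a sign of tissue handling.

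Promoter windows of 8 of the 10 genes were taken from the RefSeq table for GRCm38.p6. Egr1 was skipped in the search, and no window of Ier2 was used. The start is that of a RefSeq transcript and can differ from the end of the GENCODE M21 gene span given with each gene: the Atf3, Nr4a1 and Zfp36 windows lie inside that span, and the Jund window ends upstream of it. The 250 bases before the RefSeq start were searched on both strands for TGACG, the core of the cAMP response element, GCGNGGGCG, the EGR motif, TGANTCA, the AP-1 motif, TATAAA, the TATA box, and the CArG box, the core of the serum response element. The promoters of Fos, which peaked in CTX 2, Nr4a1, which peaked in control 3, and Junb and Zfp36, which both peaked in CTX 1, are printed here. Fos is chr12:85473640-85473889 on the plus strand and Nr4a1 chr15:101266596-101266845 on the plus strand. Junb is chr8:84978749-84978998 on the minus strand and Zfp36 chr7:28379229-28379478 on the minus strand. They run 5′ to 3′, with motif matches on either strand in capitals.
Fos: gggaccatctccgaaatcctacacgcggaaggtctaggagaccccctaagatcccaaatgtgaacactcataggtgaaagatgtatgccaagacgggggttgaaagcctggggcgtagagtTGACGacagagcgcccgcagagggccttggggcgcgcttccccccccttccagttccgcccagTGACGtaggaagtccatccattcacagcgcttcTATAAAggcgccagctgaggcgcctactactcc
Nr4a1: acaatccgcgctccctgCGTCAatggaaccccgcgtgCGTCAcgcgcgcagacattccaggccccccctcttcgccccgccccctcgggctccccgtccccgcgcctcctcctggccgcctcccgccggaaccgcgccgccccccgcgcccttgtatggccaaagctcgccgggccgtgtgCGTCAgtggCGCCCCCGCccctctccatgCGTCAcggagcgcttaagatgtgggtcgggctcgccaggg
Junb: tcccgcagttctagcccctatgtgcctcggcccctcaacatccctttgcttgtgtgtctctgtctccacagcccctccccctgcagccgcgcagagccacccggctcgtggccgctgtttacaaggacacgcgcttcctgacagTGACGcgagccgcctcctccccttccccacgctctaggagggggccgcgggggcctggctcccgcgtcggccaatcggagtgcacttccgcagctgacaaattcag
Zfp36: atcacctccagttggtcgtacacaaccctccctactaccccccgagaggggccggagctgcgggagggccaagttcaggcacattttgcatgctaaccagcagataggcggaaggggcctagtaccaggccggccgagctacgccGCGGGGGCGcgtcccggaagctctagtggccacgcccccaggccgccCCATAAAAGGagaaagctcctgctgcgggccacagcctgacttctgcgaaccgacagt

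TGACG was matched 2 times in the Fos window, 66 to 62 and 129 to 125 bases before the start, 4 times in Nr4a1 and 1 time in Junb, and 17.8% of all 32851 RefSeq promoter windows of this length held it. The EGR motif was matched in Nr4a1 and Zfp36 (4.70% of all windows). A TATA box was matched in Fos (12.4% of all windows), and a CArG box 58 to 49 bases before the start in Zfp36 (1.47%). The AP-1 motif was not matched in these 4 windows (6.75% of all windows), and no matches overlapped each other. Of the windows not shown, Fosb held TGACG and the EGR motif, Atf3 held TGACG, and the Jun and Jund windows held no match. These matches describe letters in a window and not binding. Bases further upstream were not searched, so a window without a match does not show that the gene lacks the motif. This holds for the CArG box in Fos too.

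The values are RPKM, reads per kilobase of gene and relative to sequencing depth, at depths of about 15800000 to 22200000 reads per library. Libraries of the same group were not alike in their cell type markers. Luteal genes had mean log2(RPKM + 1) values of 8.53, 8.77 and 6.90 in the control libraries, in order of replicate number, and 8.91, 6.91 and 6.91 in the CTX libraries. Granulosa genes had 5.88, 5.74 and 6.85 in control and 4.79, 6.94 and 6.94 in CTX, and oocyte genes 3.41, 3.27 and 4.35 and 2.86, 4.40 and 4.43. Controls 1 and 2 and CTX 1 were therefore high in luteal markers, and control 3 and CTX 2 and 3 high in follicle markers. The defining ovarian gene Foxl2, a granulosa transcription factor, was present at 78.9 to 94.0 RPKM in all 6 libraries. In whole-ovary RNA, fewer cells of a type and less RNA per cell cannot be told apart.

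On the RPKM scale the 10 genes spanned about 2 orders of magnitude. By mean over the 6 libraries the order was Jund (54.0), Nr4a1 (50.8), Jun (28.1), Egr1 (25.1), Ier2 (23.9), Zfp36 (20.9), Junb (20.5), Fos (7.61), Atf3 (2.28) and Fosb (0.542). Neighbours in this order overlapped in their ranges, except Atf3 and Fosb, which did not overlap and kept their order in 6 of 6 libraries. The relative levels were therefore not fixed. Fos lay below Junb in 4 libraries and above it in CTX 2 and 3.

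**Figure D1:**
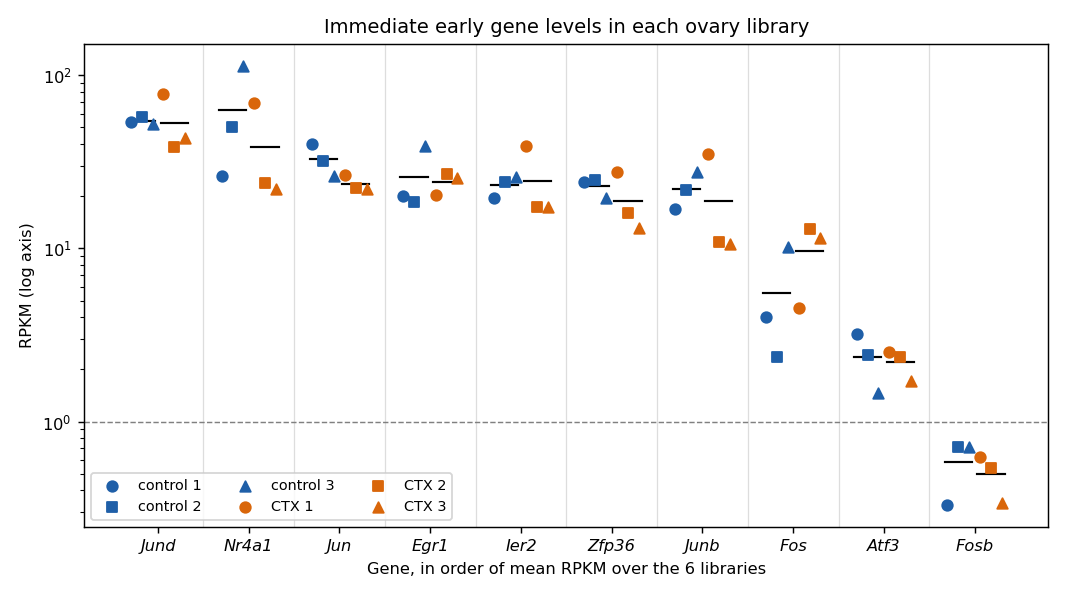
RPKM on a log axis for the 10 genes in each of the 6 libraries, with control in blue, CTX in orange, and black bars for the group means. The dashed line marks 1 RPKM; Fosb lay below it in all 6 libraries, and no gene shows groups that are fully apart.

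Fos, on chromosome 12 (85473890 to 85477273, mm10), encodes the founding FOS subunit of the AP-1 transcription factor and is a standard mark of recent cell stimulation. Its RPKM was 4.03, 2.36 and 10.2 in the control libraries and 4.52, 13.0 and 11.5 in the CTX libraries, again by replicate number as for every gene here, resting on about 89 to 676 reads. Control 3 and CTX 2 and 3 were high, and the other 3 libraries were low, so the groups overlapped. The high libraries were those with high granulosa and oocyte marker means, whose part in the Fos values was not tested. The fitted difference, CTX minus control on the log2(RPKM + 1) scale, was 0.78 ± 0.54 (SE, n = 3 each), with a limma adjusted p of 1. Fosb, a related AP-1 subunit on chromosome 7 (19302696 to 19310051), had 0.33, 0.71 and 0.71 RPKM in control and 0.62, 0.54 and 0.34 in CTX, about 33 to 75 reads. It stayed below 1 RPKM in every library and was not tested.

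The JUN proteins are the partners that FOS proteins need to bind DNA. Jun, a single-exon gene on chromosome 4 (95049034 to 95052222), had 40.1, 31.9 and 26.1 RPKM in control and 26.4, 22.4 and 21.9 in CTX. The groups overlapped only where control 3 lay just under CTX 1. The means were 32.7 ± 7.0 and 23.6 ± 2.47 (SD, n = 3 each), the log2 difference was -0.44 ± 0.18 (SE), and the unadjusted p of 0.0451 gave a limma adjusted p of 1. Its antisense gene Junos, which shares 232 exonic bases, had at most 0.55 RPKM. Jund, the JUN gene with the most constitutive expression, on chromosome 8 (70698949 to 70700616), had 53.5, 57.7 and 52.5 RPKM in control and 78.2, 38.8 and 43.2 in CTX. The controls lay close together, with CTX 1 above and CTX 2 and 3 below them. The means were 54.6 ± 2.74 and 53.4 ± 21.6, a log2 difference of -0.10 ± 0.26. The antisense gene Gm11175, which shares 877 of its exonic bases, was listed at 0 in all 6 libraries.

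Junb, on chromosome 8 (84974484 to 84978718), encodes a JUN protein that often opposes JUN. It had 17.0, 21.6 and 27.5 RPKM in control and 35.3, 10.9 and 10.5 in CTX. CTX 1 was the highest library and CTX 2 and 3 the lowest, on either side of all controls, and the log2 difference was -0.41 ± 0.47 (limma adjusted p 1). Junb shares 173 exonic bases in GENCODE M21 with Prdx2, a peroxiredoxin gene on the opposite strand, and the sources used here do not say whether counting used strand. Prdx2 had 113, 138 and 81.8 RPKM in control and 226, 79.2 and 73.6 in CTX. Spread evenly over its exons, Prdx2 would place 217 to 708 reads in the shared bases, against about 414 to 1475 reads counted for Junb. That is 22.3% of the Junb reads in control 3 and 47.9 to 54.7% in the other libraries. The Junb level is therefore uncertain, and so is whether CTX 1 or control 3 was its highest library.

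Egr1 and Nr4a1 had their highest level in control 3. Egr1, on chromosome 18 (34859823 to 34864984), encodes a zinc finger factor that is needed in the pituitary for luteinizing hormone and is induced in follicles by it. Its RPKM was 20.0, 18.7 and 39.2 in control and 20.3, 26.8 and 25.5 in CTX. Control 3 stood apart, and CTX 2 and 3 lay between it and the 3 lower libraries. The log2 difference was -0.03 ± 0.29 (SE), and without control 3 it was 0.30, also with no call. Nr4a1, on chromosome 15 (101254269 to 101274795), encodes the orphan nuclear receptor NUR77, an inducer of steroid enzyme genes. It had 26.1, 50.4 and 113 RPKM in control and 68.9, 23.9 and 22.1 in CTX. Control 3 was 5.13 times CTX 3, the lowest library. Controls 1 and 2 were in the middle by rank, with control 1 close to CTX 2 and 3. The means of 63.3 ± 45.0 and 38.3 ± 26.5 differed by less than the spread, with a log2 difference of -0.66 ± 0.63 (limma adjusted p 1).

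Ier2, a small single-exon gene on chromosome 8 (84661331 to 84662852) for a nuclear protein, had 19.5, 24.3 and 25.9 RPKM in control and 38.9, 17.5 and 17.4 in CTX. CTX 1 was above and CTX 2 and 3 were below all controls, as in Junb and Jund. Zfp36, on chromosome 7 (28376784 to 28380253), encodes tristetraprolin, which binds AU-rich messages, many of them immediate early, and speeds their decay. It had 24.2, 24.8 and 19.5 RPKM in control and 27.6, 15.9 and 13.1 in CTX, again with CTX 1 highest and CTX 2 and 3 lowest. It shares 125 exonic bases with the antisense gene Gm44710. Atf3, a stress-induced bZIP repressor on chromosome 1 (191170296 to 191218039), had 3.21, 2.43 and 1.47 RPKM in control and 2.51, 2.35 and 1.72 in CTX. Control 1 was highest and control 3 lowest, and all CTX libraries lay between them. The log2 differences were -0.01 ± 0.32 for Ier2, -0.32 ± 0.27 for Zfp36 and -0.05 ± 0.23 for Atf3 (SE), each with a limma adjusted p of 1.

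Read library by library, as for a sign of tissue handling, the 10 genes did not peak together. CTX 1 was the highest library for Junb, Jund, Ier2 and Zfp36, control 3 for Egr1 and Nr4a1, control 1 for Jun and Atf3, and CTX 2 for Fos, while controls 2 and 3 tied for Fosb. The peak of Junb is uncertain, because its reads may include those of Prdx2, which was also highest in CTX 1. The median of the 10 genes on the log2(RPKM + 1) scale was 4.38, 4.58 and 4.76 in the control libraries and 4.81, 4.14 and 4.01 in the CTX libraries. By this median CTX 1 and control 3 were the high libraries and CTX 2 and 3 the low ones, but not for every gene. Fos and Egr1 ran the other way in CTX 1 (-0.45 and -0.25 from their own means) and in CTX 2 (0.89 and 0.14) and CTX 3 (0.73 and 0.07). Jun was slightly low in CTX 1 (-0.06), and Atf3 and Fosb were slightly high in CTX 2 (0.05 and 0.01). In control 3, 6 of the 10 genes lay above their own means, against 8 in control 2. Atf3 was clearly low in control 3 (-0.39). CTX 1 was highest in 4 of the 9 tested members against 24.0% of all tested genes, and CTX 3 was lowest in 5 of 9 against 11.4%. CTX 2 and 3 were together the lowest 2 libraries in 6 of 9 (Jun, Junb, Jund, Ier2, Nr4a1 and Zfp36), against 13.3% of all tested genes. These orderings were picked after the values were seen and are descriptions.

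**Figure D2:**
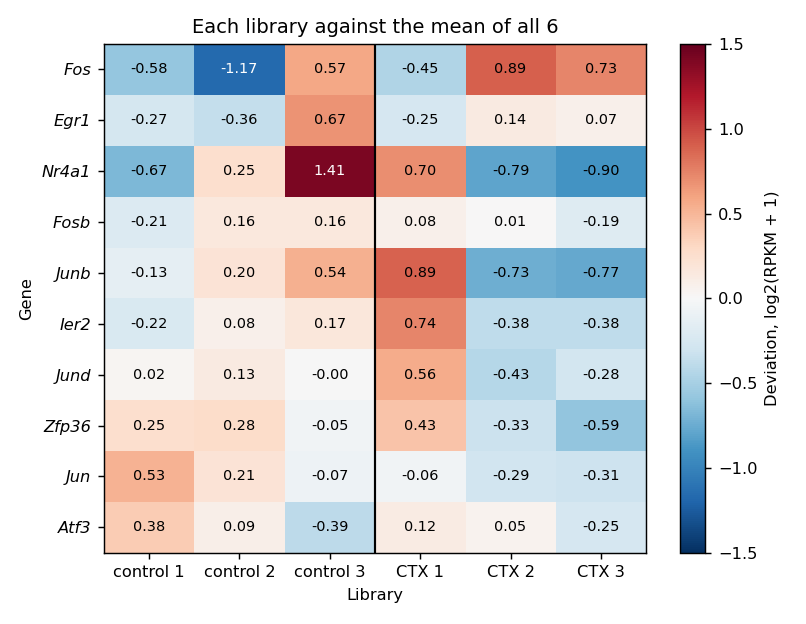
Deviation of each gene in each library from its own mean over the 6 libraries, in log2(RPKM + 1), with red for above and blue for below and the black line between control and CTX. No library is red or blue for all 10 genes; CTX 3 is below the mean in 8 of them, with Fos the clearest exception at 0.73.

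Heat shock genes, which encode chaperones and answer to warming and protein damage, did not share 1 high library. CTX 1 was the highest library in 5 of 12, against 24.0% of all tested genes, and control 1 in 4 of 12. Those 4 were Dnajb1, Hsph1, Hspa1a and Hspa1b. Picked with its values known, Hspa1b had 12.2, 6.27 and 6.54 RPKM in control and 8.5, 10.4 and 10.6 in CTX. Hspa1a, picked likewise, had 5.1, 3.4 and 3.03 in control and 3.68, 3.72 and 3.86 in CTX. Control 3 was the lowest in 9 of 12. The shares of all tested genes with control 3 lowest or control 1 highest were not computed, so these counts have no baseline. The constitutive chaperone gene Hspa8 had 336, 303 and 227 RPKM in control and 389, 297 and 313 in CTX. The mitochondrial chaperonin gene Hspd1 had 335, 346 and 193 in control and 445, 205 and 222 in CTX. No heat shock gene passed the test in either direction (0 of 12 each).

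Other measures moved with the libraries. CTX 1 was the only library whose deviations fell with exon length across tested genes (Spearman correlation -0.27, against 0.0069 to 0.15 in the others, over 14477 genes that are not independent). Its correlation with GC content was 0.11, against -0.10 to 0.07. The genes highest in it had exons of 1522 (Ier2), 1668 (Jund), 2301 (Junb) and 3470 bases (Zfp36), below the median of 3930 for tested genes. Their GC contents were 60.9, 67.1, 62.6 and 54.1%, above the median of 49.8%. These traits were not particular to them. Fos (2352), Jun (3189), Atf3 (2154) and Nr4a1 (3509 bases) also lay below the median length, and Egr1 (4484) and Fosb (6243) above it. The GC contents of these other members, 51.9 to 57.3%, were above the median too. The 8 mitochondrially encoded genes summed to 14080 RPKM in CTX 1 and 18730 to 19860 in the others. The 6 erythroid genes summed to 75.5 and 66.5 RPKM in CTX 2 and 3 and 18.4 to 27.2 in the others, and the 8 endothelial genes to 121 and 115 against 143 to 159. The 8 macrophage genes summed to 319 to 335 RPKM in control 3 and CTX 2 and 3 and 379 to 498 in the others. Most of that sum was Lyz2, with 318, 228 and 178 RPKM in control and 282, 189 and 189 in CTX. By the mean log2(RPKM + 1) of the list, control 3 (4.385) lay above control 2 (4.3). Csf1r, Mrc1 and Cd14 were lowest in CTX 1. The 6 adipocyte genes summed to 129, 173 and 159 RPKM in control 3 and CTX 2 and 3, the libraries of high Fos, and 5.46 to 8.54 in the others. The 6 neutrophil genes summed to 4.27, 5.81 and 0.98 RPKM in control and 7.76, 2.0 and 1.63 in CTX, with the defining genes Ly6g and Elane at 0 in every library. The part of these measures in the immediate early gene values was not tested.

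Set beside the libraries nearest in luteal and granulosa list means, the treated libraries lay on different sides. These libraries were not matched in composition. Star had 293 RPKM in control 3 against 65.8 and 65.0 in CTX 2 and 3, while Cyp19a1 had 8.51 against 32.8 and 33.9. Cyp11a1 was alike, with 782 against 801 and 810. The granulosa mean was 4.79 in CTX 1 against 5.88 and 5.74 in controls 1 and 2. CTX 2 and 3 had 10.9 and 10.5 RPKM of Junb against 27.5 in control 3, whose luteal and granulosa means were nearest theirs. In the same libraries Nr4a1 had 23.9 and 22.1 against 113, and Egr1 26.8 and 25.5 against 39.2. Both CTX libraries lay below control 3 in 7 of the 9 tested members, against 40.9% of all tested genes, and the exceptions were Fos and Atf3. Of the luteal-rich libraries, CTX 1 had 35.3 RPKM of Junb against 17.0 and 21.6 in controls 1 and 2, and 38.9 of Ier2 against 19.5 and 24.3. Nr4a1 had 68.9 in CTX 1 against 26.1 and 50.4. CTX 1 lay above both of these controls in 7 of the 9, against 34.5% of all tested genes, and the exceptions were Jun and Atf3. These counts were chosen after the values were seen and have 1 library on one side, so no test was made.

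**Figure D3:**
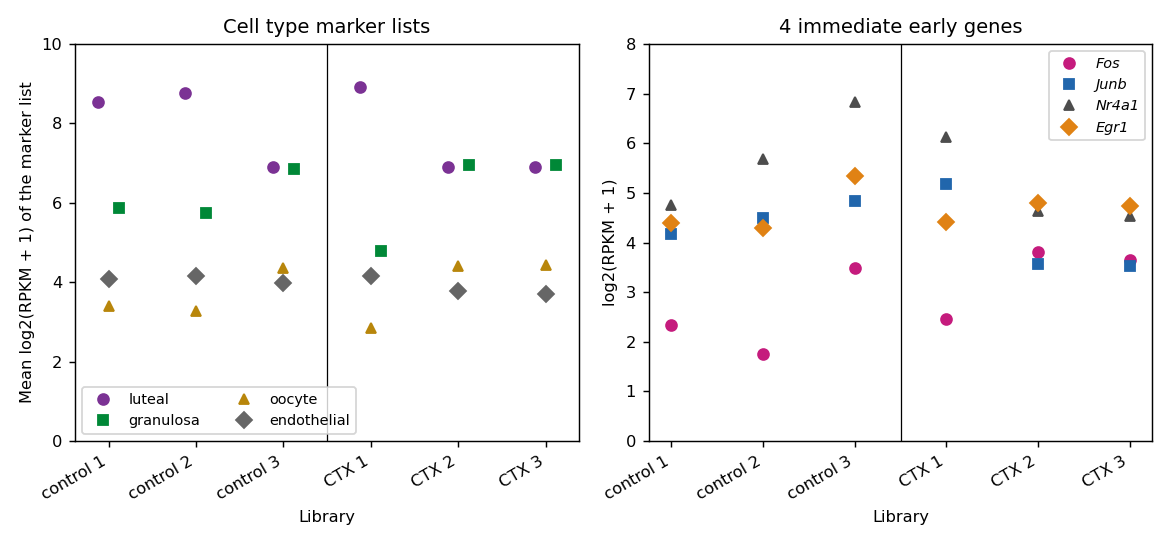
Left, mean log2(RPKM + 1) of luteal, granulosa, oocyte and endothelial marker lists by library; right, log2(RPKM + 1) of Fos, Junb, Nr4a1 and Egr1 in the same libraries. Fos is high where granulosa and oocyte markers are high (control 3, CTX 2 and CTX 3). Nr4a1 and Junb are low in CTX 2 and CTX 3 but not in control 3, and Nr4a1 is nearly as low in control 1.

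Between the groups as a whole, no immediate early gene changed by the test. The test took in genes that reached 1 RPKM in 3 or more libraries, which kept 9 of the 10 members and 14535 genes in all. Limma called 0 of 9 members at an adjusted p under 0.05, where 0% of all tested genes were called higher and 0% lower. At an unadjusted p under 0.05 there was 1 member (Jun), against 3.45% of tested genes. The groups did not overlap in 0 of 9 members, against 8.83%. Fitted differences were negative in 8 of 9, against 51.2%, with a median of -0.10 beside -0.01 for all tested genes. The exception was Fos. The 95% intervals were wide, from -0.51 to 2.08 for Fos, -2.19 to 0.87 for Nr4a1 and -1.53 to 0.72 for Junb. They were narrowest for Jun, from -0.87 to -0.01.

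**Figure D4:**
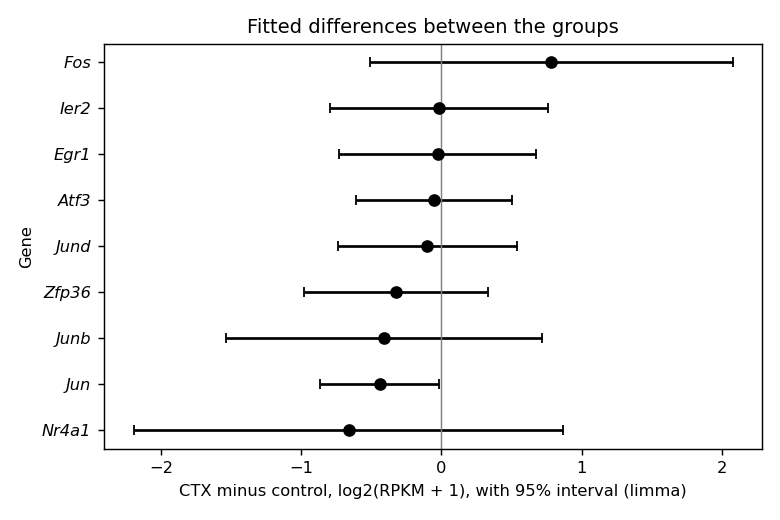
Fitted difference between CTX and control in log2(RPKM + 1) for the 9 tested genes, as points with 95% limma intervals. Each interval but that of Jun spans 0, and Jun did not pass after adjustment (limma adjusted p 1).

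The spread within groups was large for these genes. The residual SD of the fit on the log2(RPKM + 1) scale had a median of 0.43 over the 9 members and 0.23 over all tested genes. It was 0.97 for Nr4a1, 0.81 for Fos and 0.71 for Junb, which were above 97.9, 96.3 and 94.2% of tested genes. Jun, at 0.23, was near the middle. The highest library was 5.50 times the lowest for Fos, 5.13 times for Nr4a1 and 3.35 times for Junb, and 1.83 to 2.24 times for the other 7 genes.

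Leaving out CTX 1 moved the comparison. Without it, 5 of 9 members had an unadjusted p under 0.05, all lower in CTX (Junb, Jund, Zfp36, Ier2 and Jun), where 7.05% of all tested genes were lower at that p. The log2 differences were then -0.95 ± 0.20 (SE) for Junb, -0.62 ± 0.14 for Zfp36, -0.41 ± 0.09 for Jund, -0.39 ± 0.13 for Ier2 and -0.52 ± 0.18 for Jun. None passed, with limma adjusted p-values of 0.174 to 0.276. The log2 difference of Fos was 1.2 ± 0.50 (limma adjusted p 0.312). The CTX group has 2 libraries in this fit, and both are rich in follicle markers while controls 1 and 2 are not, so marker content and treatment cannot be told apart.

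Among other members of the AP-1 and bZIP families, 0 of 13 tested genes passed in either direction. Fosl2, which encodes the FOS family protein FRA2, was the most abundant FOS family gene, with 88.2, 94.7 and 90.1 RPKM in control and 72.6, 56.1 and 57.8 in CTX. All CTX libraries lay below all controls, which held for 5.50% of tested genes, and the log2 difference was -0.55 (unadjusted p 0.00577, limma adjusted p 1). Atf4, the bZIP factor of the integrated stress response, had 111, 121 and 96.8 RPKM in control and 149, 101 and 99.4 in CTX, so the groups overlapped. The list had 6 positive and 7 negative differences, with a median of -0.05.

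The other immediate early genes were 26, of which 23 were tested and 0 passed in either direction. Differences were negative in 17 and positive in 6, with a median of -0.17. Sgk1, a serum and glucocorticoid induced kinase gene, had 156, 194 and 28.3 RPKM in control and 241, 23.2 and 24.6 in CTX. It was high in the 3 libraries rich in luteal markers, where Fos was low. Rhob, an immediate early small GTPase gene, had 44.1, 45.7 and 49.1 in control and 48.8, 49.4 and 53.2 in CTX, close to even across libraries. Ctgf, a target of SRF and YAP picked with its values known, had 22.5, 14.9 and 38.6 in control and 22.1, 90.5 and 86.8 in CTX. It had the same high libraries as Fos.

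Of 24 genes for feedback inhibitors, which end the immediate early response, 23 were tested and 0 passed in either direction, with 15 negative and 8 positive differences and a median of -0.12. Rgs2, a regulator of G protein signalling, had 44.5, 37.7 and 120 RPKM in control and 35.3, 119 and 129 in CTX, the libraries of high Fos again. Zfp36l1, a relative of Zfp36, had 46.8, 41.3 and 55.9 in control and 32.6, 47.7 and 47.7 in CTX. Dusp1, the phosphatase that switches off MAP kinases, was picked with its values known and had 53.4, 47.6 and 8.68 in control and 73.9, 6.64 and 6.01 in CTX. Dusp1 and Fos, which are often induced together, were thus high in opposite sets of libraries.

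Of the upstream regulators, 0 of 18 passed in either direction, with a median difference of -0.02. The kinase gene Mapk3, for ERK1, had 76.2, 85.4 and 67.7 RPKM in control and 109, 66.7 and 60.8 in CTX, with CTX 1 highest. Mapkapk2, a kinase gene downstream of p38, had 37.4, 37.4 and 41.0 in control and 40.8, 44.2 and 42.4 in CTX. Srf, for serum response factor itself and picked with its values known, had 18.6, 17.2 and 21.3 in control and 16.9, 26.5 and 24.7 in CTX.

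**Figure D5:**
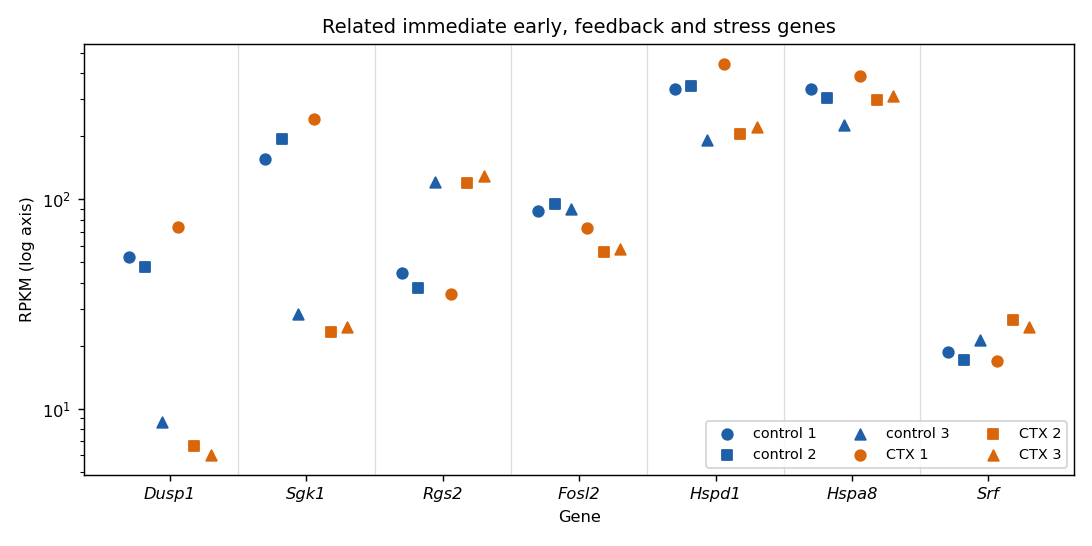
RPKM on a log axis for 7 related genes in each library, with control in blue and CTX in orange. Dusp1 and Sgk1 are high in controls 1 and 2 and CTX 1, Rgs2 is high in control 3 and CTX 2 and 3, and Fosl2 is lower in all CTX libraries than in all controls without passing the test.

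Likeness was measured as Pearson's r over the 6 libraries on the log2(RPKM + 1) scale, among 14535 tested genes, with no test. The mean profile of the 10 members was most like Ntan1 (0.990), Ptp4a3 (0.980), Gm13889 (0.979), Eva1b (0.979) and Cldn5 (0.977), an endothelial tight junction gene. Cldn5 had 32.7, 34.4 and 43.0 RPKM in control and 39.5, 29.4 and 29.8 in CTX. Fos was most like Zar1l (0.997), an oocyte-expressed relative of Zar1, Itgb5 (0.997), an integrin subunit gene, and Entpd6 (0.996). Itgb5 had 35.6, 31.5 and 50.7 RPKM in control and 36.8, 56.1 and 52.9 in CTX, which is the order of the libraries in Fos. With 6 libraries that fall into 2 sets by marker content, such values are easily high.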

How the data were processed

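The authors deposited 1 table per library, with values taken as RPKM rounded to 2 decimals. The headers name no unit, and the unit was inferred: for genes up to 1000 exonic bases long, low values (up to 15 reads) were whole multiples of 1 step per library, to within 0.2 reads, in 97.7 to 98.1% of cases. That step gives the depth. Bowtie 0.12.2 and mm10 are named in the submitters' processing notes, and the sources used here do not name the counter, annotation, strand use or treatment of reads with many matches. Lengths, GC content and coordinates came from GENCODE M21 on GRCm38, the assembly of mm10, matched by 45229 identifiers, and 30 damaged symbols were restored by identifier.

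The analysis used log2(RPKM + 1), which understates changes of low genes. The 2 groups were compared by limma 3.58.1 under R 4.3.3, with a mean-variance trend and no covariates. Tests were two-sided, with Benjamini-Hochberg adjustment over all 14535 tested genes. The fit was also run on simulated data with independent noise, smaller than the median residual SD of 0.23 here. That run does not measure power or error rate for these libraries. Counts could not be recovered for long genes, so no count model was run. The members and gene lists were chosen with earlier results of these data known. All 10 members are named, with the 2 most abundant genes of each related list, and others are marked. Correlations between members are not given, because the libraries fall into sets. Alternatives were trimmed-mean scaling, quantile normalization, no trend, pseudocounts of 0.1 and 0.5, no filter, a filter at a mean RPKM of 5, a replicate block and each library left out.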

Additional observations from a re-analysis of the deposited data

How the results depend on the processing

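No member was called under any of the 14 alternatives, with a smallest limma adjusted p of 0.174 (Junb, without CTX 1). Without a filter 4 genes were called higher and 13 lower among 46078, and the cause was not tested. Their log2 differences were small, from -0.36 to 0.080, except for Slc27a6 (-1.05). Leaving out 1 library in turn gave 0 to 2 genes called higher and 0 to 3 lower. The calls came without CTX 1: C7 and Slc38a3 were higher, and Mgst2, Hao2 and Pgbd5 lower, none of them a member. Negative differences were 8 of 9 tested members, 7 with trimmed-mean scaling and 5 to 7 with 1 library left out. Over the left-out libraries the log2 difference ranged from -0.41 to 0.091 for Jund, -0.21 to 0.30 for Egr1, -0.26 to 0.13 for Atf3 and -0.39 to 0.17 for Ier2, so these 4 signs turned. That of Ier2 was 0.00080 with trimmed-mean scaling. Those of Fos (0.40 to 1.27), Jun (-0.59 to -0.29), Junb (-0.95 to -0.12), Nr4a1 (-1.18 to -0.12) and Zfp36 (-0.62 to -0.11) kept their sign. The mean of the 10 genes in place of their median was 3.83, 3.90 and 4.22 in controls 1, 2 and 3 and 4.19 in CTX 1, and placed control 3 above CTX 1. With the replicate number as a block, 0 genes were called higher, 0 lower and 0 members. Deviations from the group means correlated by 0.40, -0.54 and 0.60 between libraries numbered 1, 2 and 3. The signs follow the luteal-rich and follicle-rich sets, so they cannot show whether the numbers pair the libraries. Depth limits Fosb, with about 33 to 75 reads.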
